A study of Rattus norvegicus with 6 samples.

Results

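The genes described here are those that make, carry, break down and sense retinoic acid: the retinaldehyde dehydrogenases Aldh1a1 and Aldh1a3, the cellular retinoic acid binding proteins Crabp1 and Crabp2, the retinoic acid receptors Rara and Rarb, the retinoid X receptors Rxra and Rxrg, and the degrading enzyme Cyp26b1. They were taken as every probe of the submitters' series table whose platform annotation names 1 of these 9 genes and no other gene. The rule found 13 probes for 8 genes, among 16753 probes that name 1 gene and 33849 probes in all. Rxra was not measured by the rule, because the 1 probe that names it also names another gene. The third retinaldehyde dehydrogenase, Aldh1a2, was left out by the rule and is given beside the others for comparison.

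RNA came from brainstem cells kept in culture, taken from 2 rat strains: the spontaneously hypertensive rat (SHR), in which blood pressure becomes high without treatment, and the normotensive Wistar Kyoto rat (WKY) as control. Each strain had 3 arrays, each with RNA pooled from 3 dishes, and the labels name no treatment. Neither the age of the animals nor the time in culture is given in the sources used here. Signals are single-colour CodeLink intensities, and differences are given on the log2 scale as SHR minus WKY, so that 1 on that scale is a 2-fold change. The comparison asks whether retinoic acid genes differ by strain in these cultures.

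Cells make retinoic acid from vitamin A in successive steps, in which retinol dehydrogenases form retinaldehyde and the Aldh1a enzymes oxidise it. Crabp proteins hold the acid in the cytoplasm, Crabp2 being known for passing it to the receptors in the nucleus, and Cyp26 enzymes of the cytochrome P450 family destroy it. The receptors bind DNA as pairs of an RAR and an RXR. In the embryo this signal patterns the hindbrain, from which the brainstem forms, and in the brain the meninges are a known source of it.

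Before normalization the array medians ranged from 439 to 572 intensity units, and they were equal afterwards. Correlations of log2 signals across 31327 probes were 0.969 to 0.980 within a strain and 0.964 to 0.977 between strains. The astrocyte marker Gfap was brighter than 97.5% of the probes tested. Of 12 listed neuronal markers, 8 had a probe with values above 0 on all 6 arrays, which by itself does not show expression. Their signals ran from Snap25, brighter than 1.27% of the probes tested, to Stmn2, brighter than 95.5%. With an adjusted p of 0.05 (limma, Benjamini-Hochberg over all probes), none of the 33249 probes tested was called (0), while 2545 stood at an unadjusted p below 0.05. The design text calls the arrays of a strain independent biological replicates, but which animals or litters went into each pool is not given, and p-values measure the spread between these pools.

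The receptor gene Rarb is a textbook target of its own product, through a retinoic acid response element near the start of the gene. Such an element is a direct repeat of a half-site with 5 bases between the copies (DR5). The half-site was AGGTCA in its consensus form, and the variant spellings searched beside it were AGTTCA for one, then GGGTCA for another, and lastly GGTTCA. It was searched on both strands of the RefSeq windows around gene starts (assembly GRCr8), from 250 bases before to 50 bases after the start, along with repeats spaced by 1 base (DR1) or 2 bases (DR2). All 9 genes and Aldh1a2 had a window, and Rarb alone among these 10 genes had a match, a DR5 on the strand of the gene at bases 25 to 41 counted from the start, at chr15:11336416-11336432. A DR5 was found in 0.382% of 33469 windows, a DR1 in 0.233% and a DR2 in 0.17%. The element is shown because Rarb signal is a customary readout of retinoic acid, with the half-sites in capitals and 6 flanking bases on either side (chr15:11336410-11336438, plus strand).
Rarb: gggaagGGTTCAccgaaAGTTCActcgca
The 150 bases before the start of Cyp26b1 (chr4:118616177-118616326, minus strand) and of Crabp2 (chr2:175714712-175714861, plus strand) are shown because signals of these genes followed each other across the arrays. Neither holds a half-site on either strand, so no letter is in capitals.
Cyp26b1: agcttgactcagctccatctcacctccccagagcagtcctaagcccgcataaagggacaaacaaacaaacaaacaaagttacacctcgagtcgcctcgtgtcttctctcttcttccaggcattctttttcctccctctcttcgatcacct
Crabp2: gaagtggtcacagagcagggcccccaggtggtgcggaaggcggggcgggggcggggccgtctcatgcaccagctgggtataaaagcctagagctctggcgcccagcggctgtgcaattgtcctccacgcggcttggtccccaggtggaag
A match is a string of letters and not evidence of binding, and the absence of one in this window says nothing about elements elsewhere.

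Cyp26b1, which breaks retinoic acid down, had the smallest p of the 13 probes, and both of its probes were about 2-fold brighter in SHR. At the brighter probe (probe A) the intensities were 1410, 2920 and 2946 in SHR against 745, 1574 and 1076 in WKY. At probe B they were 759, 1793 and 1696 in SHR against 522, 931 and 553 in WKY. At both probes SHR 2 and SHR 3 lay above all WKY arrays, while SHR 1 lay below WKY 2, so the strains overlapped. Probe A differed by 1.09 ± 0.39 (SE), a 2.13-fold higher mean in SHR, with a 95% interval of 0.15 to 2.02, an unadjusted p of 0.0288 and an adjusted p of 0.598 in limma. Probe B differed by 1.03 ± 0.40, a 2.05-fold higher mean in SHR, with an unadjusted p of 0.0377 and an adjusted p of 0.627 in limma. Both carry the same transcript accession in the platform annotation, so they measure 1 gene and are not independent evidence.

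The carrier gene Crabp2 had a similar profile. Its intensities were 1319, 2490 and 2556 in SHR against 489, 1680 and 1188 in WKY. SHR 1 again lay among the WKY arrays, and WKY 1 was lowest. The log2 mean was 10.99 ± 0.54 in SHR against 9.95 ± 0.92 in WKY (SD, n = 3 each). They differed by 1.03 ± 0.50 (SE), with a 95% interval of -0.17 to 2.24 (unadjusted p = 0.0804, adjusted p = 0.676 in limma). Without WKY 1 the difference was 0.52. Its sister Crabp1, which is known as a cytoplasmic buffer of retinoic acid, had 4723, 4534 and 5463 units in SHR against 4752, 5134 and 4311 units in WKY. The strains interleave, with a difference of 0.05 ± 0.14 and a 95% interval of -0.29 to 0.39. The interval leaves room for a mean at most 1.31-fold higher or 1.22-fold lower in SHR.

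The enzymes that make retinoic acid gave unlike differences. Aldh1a3 was nearly equal in the strains, with 5915, 7151 and 6716 units in SHR against 7511, 5949 and 6348 units in WKY and a difference of 0.00071 ± 0.15 (95% interval -0.36 to 0.36). Aldh1a1 was the most variable gene of the set, with 2534, 1398 and 2954 units in SHR against 5942, 1082 and 1221 units in WKY. The WKY 1 value was the highest of the 6 and the other 2 WKY values were the lowest. The difference was 0.14 ± 0.69, and 0.93 without WKY 1 (unadjusted p = 0.0402, adjusted p = 0.449 in limma). The platform lists 3 accessions for this probe, of which 1 was found in the RefSeq gene table, as Aldh1a1. Whether the probe also reads a related enzyme was not tested.

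Aldh1a2, left out of the rule, gives the scale. Its intensities were 3580, 3753 and 4308 in SHR against 1300, 1296 and 1546 in WKY, and SHR stood 2.81-fold higher with no overlap (1.49 ± 0.14, adjusted p = 0.0853 in limma). Unlike Cyp26b1 and Crabp2, SHR 1 was high for this gene. The 3 dehydrogenase genes therefore had differences of 1.49, 0.14 and 0.00071, with standard errors of 0.14, 0.69 and 0.15.

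**Figure D1:**
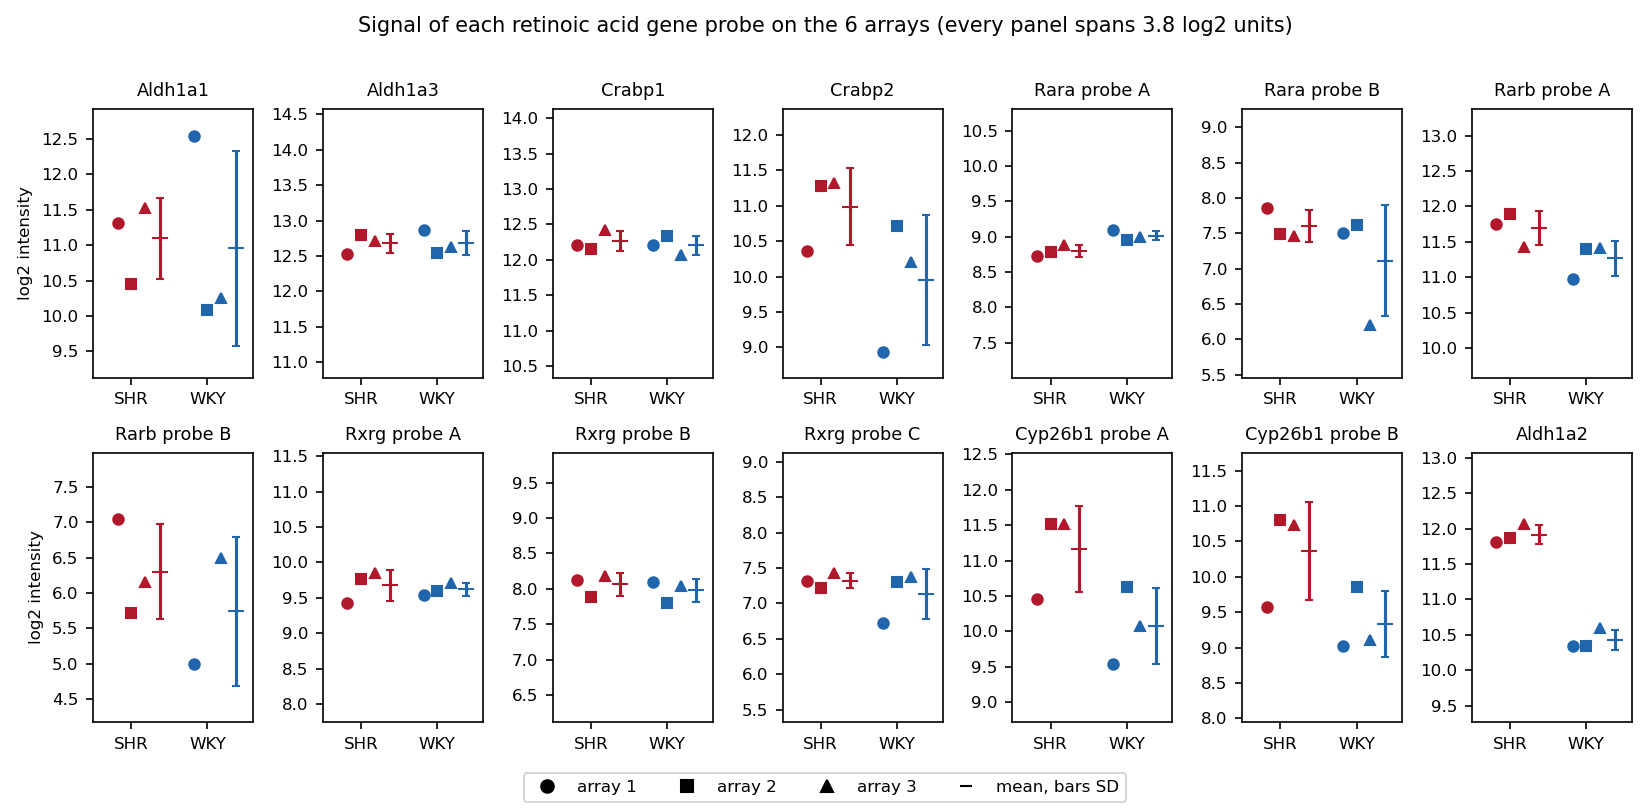
Log2 intensity (vertical axis, with the same span in each panel) of the 13 probes and of Aldh1a2 on each array, by strain (horizontal axis), with symbols for array number and bars for mean ± SD. Probes of a gene are lettered by brightness. Aldh1a2 is separated widely between the strains, Cyp26b1 and Crabp2 show SHR 2 and SHR 3 above every WKY array, and WKY 1 of Aldh1a1 stands apart from the other WKY arrays.

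At the brightest probe of each receptor gene, Rarb showed the largest difference. At its brighter probe (probe A) the intensities were 3437, 3822 and 2759 in SHR against 2023, 2693 and 2741 in WKY. All SHR values lay above all WKY values, but the lowest SHR value and the highest WKY value were 0.0093 apart on the log2 scale, far less than the range of 0.47 within SHR. The difference was 0.43 ± 0.19, a 1.34-fold higher mean in SHR (95% interval -0.04 to 0.89, unadjusted p = 0.0656, adjusted p = 0.661 in limma), and 0.28 without WKY 1. Probe B was dim, brighter than 6.77% of the probes tested, and its WKY 2 entry was not above 0 and was left out. Its remaining intensities were 131, 52.5 and 71.3 in SHR against 31.9 and 89.7 in WKY, which overlap, with a difference of 0.56 ± 0.57 and -0.18 without WKY 1.

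Rara, the receptor expressed in most tissues, gave opposite signs at its 2 probes, which carry the same accession. Probe A had 422, 442 and 473 units in SHR against 544, 497 and 512 units in WKY. All SHR values were lower, by a mean of 0.22 (difference -0.22 ± 0.12, unadjusted p = 0.122, adjusted p = 0.695 in limma), and the difference was -0.07 in intensities not normalized between arrays. Probe B had 232, 179 and 177 units in SHR against 182, 196 and 74.0 units in WKY, with a difference of 0.49 ± 0.39. Most of its size rested on WKY 3, since the difference was 0.04 without that array.

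Rxrg, the retinoid X receptor of restricted expression, had 3 probes, and none separated the strains. Probe A had 685, 866 and 918 units in SHR against 744, 775 and 840 units in WKY. The differences were 0.06 ± 0.16 at probe A, 0.08 ± 0.15 at probe B and 0.19 ± 0.20 at probe C. Probe B ranged from 236 to 291 units in SHR and from 222 to 275 units in WKY. Probe C ranged from 149 to 172 units in SHR and from 106 to 165 units in WKY, WKY 1 being lowest. The 95% interval of probe A, -0.32 to 0.43, allows a mean up to 1.35-fold higher or 1.25-fold lower in SHR. From the highest to the lowest signed difference, the brighter probe of each gene gave Cyp26b1, Crabp2, Rarb, Aldh1a1, Rxrg, Crabp1, Aldh1a3 and Rara. Whether neighbours in this order differ was not tested.

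Of the 13 probes, 12 had a difference above 0 and 1 below, against 48.4% above 0 over all probes tested. Probes of the same gene are not independent. With 1 probe per gene, 7 of 8 were above 0, against 49.8% of named genes. The difference was smaller than 0.2 at 6 of the 13 probes. The 2 probes of Cyp26b1 were those with an unadjusted p under 0.05 (15.4%, against 7.65% of all probes), both higher in SHR, where 3.65% of all probes were called higher and 4.01% lower, and 0 passed an adjusted p of 0.05, against 0% of all probes. The strains did not overlap at 2 probes, Rarb probe A higher in SHR and Rara probe A lower, or 15.4% against 13.8% of all probes, a share near the background (6.35% higher and 7.48% lower). Cyp26b1 probes A and B and Crabp2 were at least 1 higher in SHR on the log2 scale, as were 1.15% of all probes. With 1 probe per gene, the median difference of the 8 genes was 0.10, against -0.00088 for 11709 named genes. Cyp26b1 lost its unadjusted p under 0.05 without SHR 2, SHR 3, WKY 1 or WKY 3, where probe A gave differences of 0.92, 0.91, 0.82 and 1.09 (unadjusted p between 0.0664 and 0.0884 in limma).

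**Figure D2:**
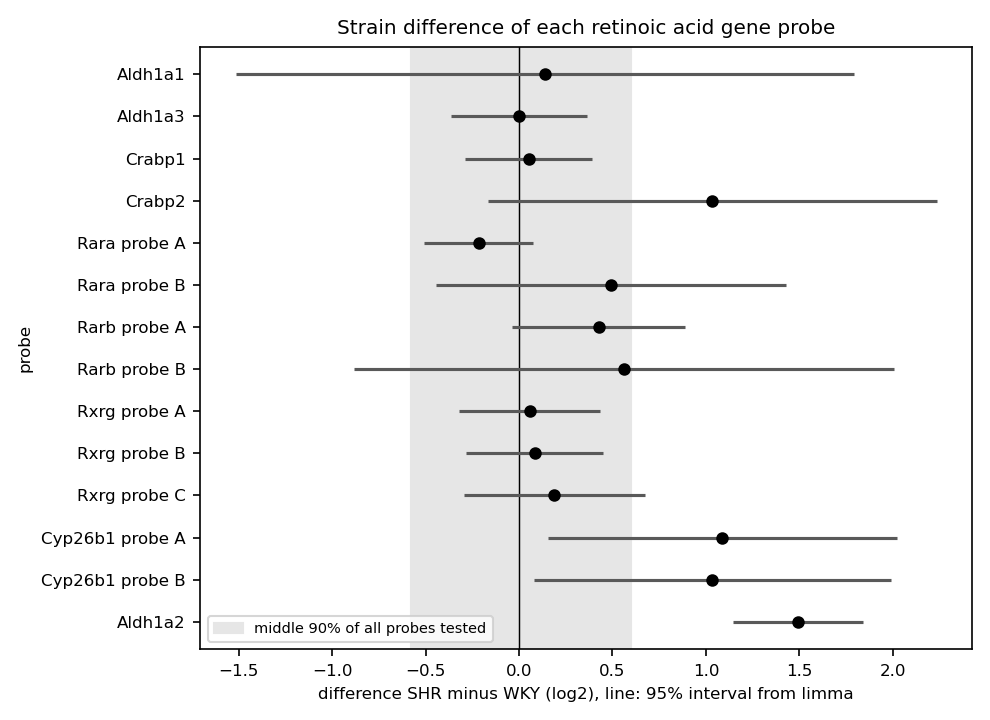
Difference SHR minus WKY (log2, horizontal axis) of each probe (vertical axis), with 95% intervals from limma and a grey band that holds the middle 90% of all 33249 probes, from -0.58 to 0.60. Points of Cyp26b1, Crabp2 and Aldh1a2 lie to the right of the band, and the other 10 probes lie within it.

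Cyp26b1 and Crabp2 varied together within each strain as well as between the strains. Measured from its own mean over the 6 arrays, Cyp26b1 probe A stood at -0.16, 0.89 and 0.90 in SHR against -1.08, -0.0018 and -0.55 in WKY. Crabp2 stood at -0.11, 0.81 and 0.85 in SHR against -1.54, 0.24 and -0.26 in WKY. The root mean square distance between these profiles was 0.25, which placed Crabp2 10th among 11708 named genes, whose median distance was 0.75. Profiles were not scaled, so a gene that varied little also lay near that median, such as Aldh1a3 at 0.74. The median is therefore not a measure of unlike profiles. The other probe of Cyp26b1 lay at a distance of 0.14. The 3 closest genes were Gpc3, a cell surface proteoglycan (0.10), Gjb6, the gap junction gene connexin 30 (0.16), and Srpx2, a secreted protein (0.17). Rarb ranked 386th with a distance of 0.56, Aldh1a2 163rd with 0.49 and Aldh1a1 11622nd with 1.30. The arrays are few and shared by all genes, so the distances describe these 6 arrays.

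Marker genes of other cell types followed this profile in part. Of 15 measured markers of leptomeningeal fibroblasts, none of them a retinoid gene, 11 were above 0 and 5 had an unadjusted p under 0.05, all 5 higher in SHR (6.7% of 11709 genes with 1 probe each had such a p). Their mean centred levels were -0.03, 0.36 and 0.48 in SHR against -0.25, -0.15 and -0.40 in WKY. Again SHR 1 was lowest of its strain and WKY 2 highest. WKY 3 was the lowest WKY array here, whereas WKY 1 was lowest for Cyp26b1 and Crabp2. Among these markers, Slc6a13 (1.62 ± 0.34) also had SHR 1 lowest and WKY 2 highest of its strain. For Mgp (0.86 ± 0.14) SHR 1 was instead highest of its strain and WKY 2 lowest. The collagen genes Col1a1 (-0.02 ± 0.17) and Col1a2 (0.20 ± 0.16) differed less. The 10 markers of choroid plexus and ependyma had mean levels of 0.27, 0.21 and 0.54 in SHR against -0.29, -0.49 and -0.24 in WKY. Of these 10, 8 were above 0, and 3 were higher and 1 lower in SHR at an unadjusted p under 0.05. Ttr (2.66 ± 0.60) was higher and Kcne2 (-0.48 ± 0.19) lower, both without overlap. The 10 astrocyte markers had mean levels between -0.09 and 0.10 on all arrays, with 5 genes above 0 and 5 below. Of these, 1 was lower in SHR at an unadjusted p under 0.05, Aldh1l1 (-0.45 ± 0.16, without overlap). Sox9 stood at 0.49 ± 0.23. Of 11 oligodendrocyte markers, 10 were below 0 and 3 had an unadjusted p under 0.05, all 3 lower in SHR. Their mean levels of -0.51, 0.26 and -0.69 in SHR and of 0.24, 0.47 and 0.24 in WKY overlap, with SHR 2 at the level of the WKY arrays. The 8 neuronal markers, 3 above 0 and 5 below, had SHR 1 lowest and WKY 2 highest of its strain. Their mean levels were -0.34, 0.31 and -0.32 in SHR against -0.04, 0.33 and 0.06 in WKY. So this order was not particular to the meningeal list. The lists of microglia and endothelial cells did not have it. In bulk RNA, more cells of a type and more RNA per cell cannot be told apart, and the part of these cell types in the signals of Cyp26b1, Crabp2 and Aldh1a2 was not tested.

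**Figure D3:**
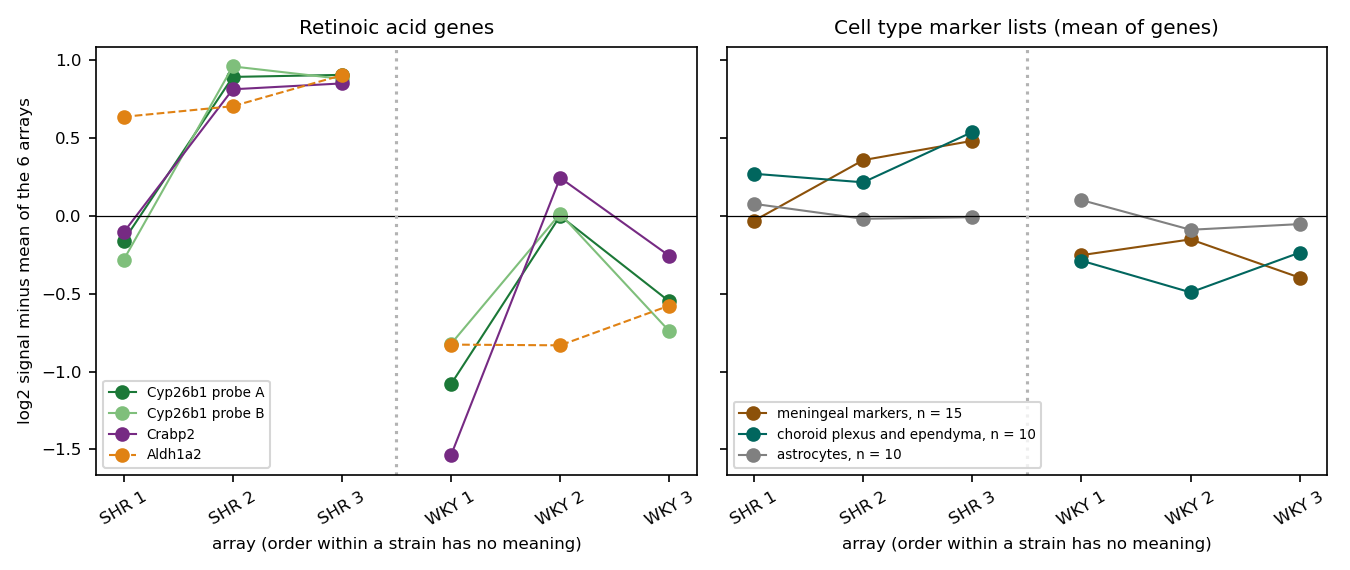
Log2 signal of each array minus the mean of the 6 arrays (vertical axis) for Cyp26b1, Crabp2 and Aldh1a2 (left) and the mean of the genes of 3 marker lists (right), by array (horizontal axis). Cyp26b1, Crabp2 and the meningeal markers are lowest on SHR 1 within SHR and highest on WKY 2 within WKY, Aldh1a2 is high on all SHR arrays, and the mean of the astrocyte markers stays near 0.

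Genes around the retinoic acid system were read from lists by role, 78 genes measured of 104 listed. Of these, 4 were higher and 3 lower in SHR at an unadjusted p under 0.05, or 8.97% against 6.7% of named genes (3.38% higher and 3.31% lower), and 0 passed an adjusted p of 0.05. Their median difference was -0.05, with 32 above 0 and 46 below, while 49.8% of named genes were above 0. Among 15 enzymes of retinol and retinaldehyde, 3 were higher and 1 lower at an unadjusted p under 0.05. Beside Aldh1a2, Dhrs3, which turns retinaldehyde back to retinol and is a known target of retinoic acid, had log2 signals of 11.45, 11.35 and 11.33 in SHR against 10.86, 10.91 and 10.92 in WKY. These do not overlap, with a difference of 0.48 ± 0.12 (unadjusted p = 0.00519, adjusted p = 0.506 in limma). Rdh10, which makes retinaldehyde from retinol, was named after its values were seen and had 10.72, 10.69 and 10.91 in SHR against 10.46, 10.12 and 10.45 in WKY, also without overlap (0.43 ± 0.15, unadjusted p = 0.0292, adjusted p = 0.599 in limma). The alcohol dehydrogenase gene Adh7 had lower values in SHR (-0.47 ± 0.17, unadjusted p = 0.0287 in limma). Adh7 lost an unadjusted p under 0.05 without SHR 2, SHR 3, WKY 1 or WKY 2 (unadjusted p up to 0.0903), and Rdh10 lost it without SHR 1, SHR 3 or WKY 2 (up to 0.0929), while Dhrs3 kept it without each array in turn. Adh7 also lost it with the robust prior that follows intensity (unadjusted p = 0.0653 in limma) and in intensities not normalized between arrays (0.0649).

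Of 8 genes of vitamin A uptake and storage, 0 had an unadjusted p under 0.05. Stra6, the receptor through which cells take up retinol and a known target of retinoic acid, came closest, with 9.44, 10.71 and 9.94 in SHR against 7.92, 9.44 and 9.25 in WKY. The strains were separated by a narrow margin, and the difference was 1.16 ± 0.49 (unadjusted p = 0.0525, adjusted p = 0.655 in limma), or 0.69 without WKY 1. Dgat1 (0.19 ± 0.19) and Rbp2 (0.20 ± 0.24) differed by no more than their errors. Among 4 genes of breakdown and other carriers, Cyp26a1 (0.26 ± 0.30, dim), Cyp2s1 (0.20 ± 0.19) and Ugt2b1 (-0.13 ± 0.20) showed no difference beyond about 1 SE.

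Of 8 other retinoid and orphan receptors, 1 was lower in SHR at an unadjusted p under 0.05, Rora, an orphan receptor of the cerebellum and immune cells (-0.52 ± 0.15, but 0.12 at its other probe). Nr2f1 (-0.16 ± 0.15, and -0.06 without SHR 3) and Nr2c2 (0.38 ± 0.33, and 0.0034 without WKY 2) did not reach it. Of 13 receptors that pair with RXR, 1 was lower, the thyroid hormone receptor gene Thrb (-0.81 ± 0.23, and -0.20, -0.30 and -0.44 at its other probes), followed by the oxysterol receptor Nr1h3 (-0.36 ± 0.16) and Nr4a1 (-0.40 ± 0.23). Of 12 coregulators, 1 was higher, the corepressor gene Sin3a (0.60 ± 0.23). Ep300 (-0.27 ± 0.13, but -0.06, 0.48 and -0.02 at its other probes) and Nrip1 (-0.47 ± 0.35) did not reach an unadjusted p of 0.05. Sin3a kept an unadjusted p under 0.05 without WKY 2 but lost it without each of the other 5 arrays (up to 0.104, with a difference of 0.40 without WKY 3). Sin3a also lost it in median-centred intensities (unadjusted p = 0.0659 in limma) and under a replicate block on the array number (0.0689). Rora and Thrb kept it without each array in turn and lost it in intensities not normalized between arrays (unadjusted p = 0.17 and 0.0688 in limma). None of these genes passed over all probes.

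The listed textbook targets of retinoic acid were spread around 0. That list left out Rarb (0.43 ± 0.19 at probe A) and Stra6 (1.16 ± 0.49), described above as targets and counted elsewhere. It held none of the 9 genes of the rule, so Cyp26b1 (1.09 ± 0.39 at probe A) and Crabp2 (1.03 ± 0.50) were outside it too. Of the 8 measured by the rule, 7 were above 0 and 1 below. Of 21 measured, 10 were above 0 and 11 below, the median difference was -0.0095, and Dhrs3 was the 1 gene with an unadjusted p under 0.05. Tgm2, the tissue transglutaminase, had 12.74, 12.86 and 12.37 in SHR against 11.20, 12.22 and 12.44 in WKY, which overlap (0.70 ± 0.34, 0.71 at its other probe, and 0.33 without WKY 1). Bdnf, a neurotrophin, was measured at one of the dimmest probes (-0.58 ± 0.29).

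**Figure D4:**
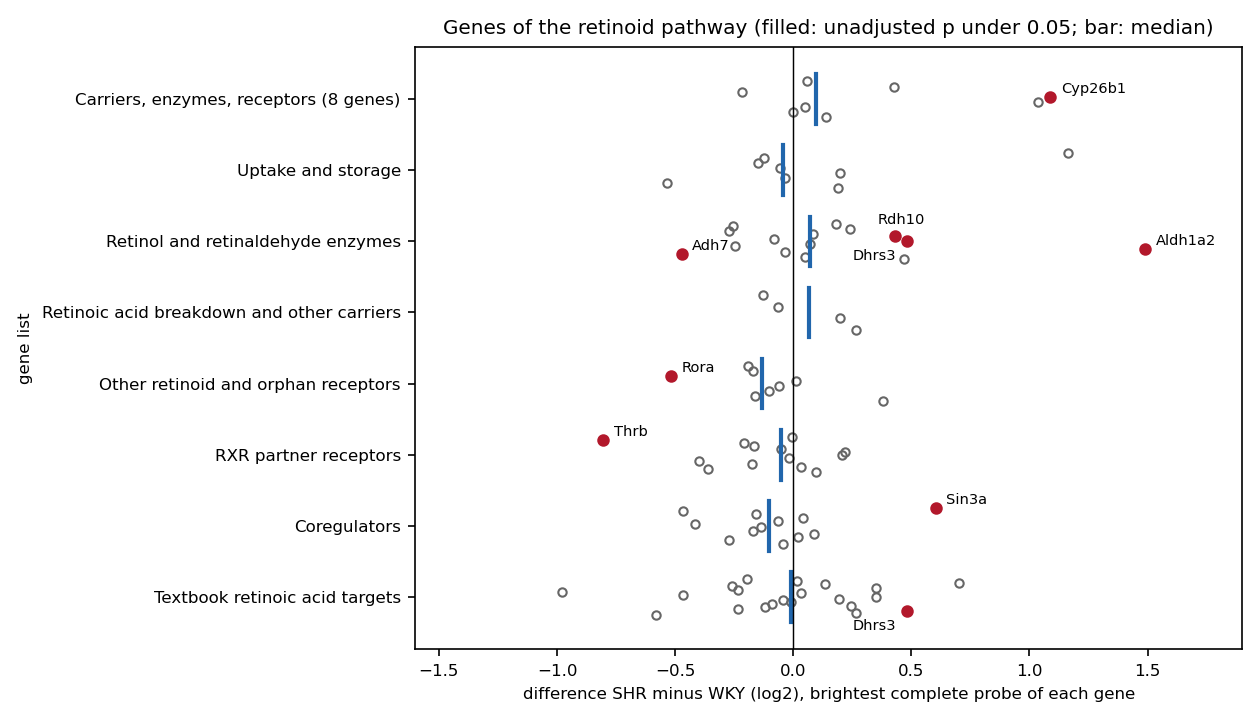
Difference SHR minus WKY (log2, horizontal axis) of each gene of the retinoid lists (vertical axis) at its brightest probe measured on all 6 arrays, with filled points at an unadjusted p under 0.05 and bars at the median of a list. Aldh1a2 stands farthest to the right, and the bars of all lists lie between -0.13 and 0.10.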

How the data were processed

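According to the series' design text, the authors read spot intensities, with background subtracted, from the images using CodeLink software, dropped values below negative controls plus 2 SD, kept genes valid in every replicate of a strain and applied quantile normalization. No software version is given in the sources used here. The deposited series table, used here, holds linear intensity, and its 6 columns share the same sorted values. The deposited per-sample intensity tables still differ between arrays and served as an alternative. The missing code -9999 had entered the normalization, and 615 entries per column are not above 0. Before normalization 171 to 233 entries per array held that code, so the 615 include other low readings. For example, WKY 2 of Rarb probe B was -1.655 before normalization, so the deposited values do not show the filter in full. All entries not above 0 were treated as missing, and log2 of the deposited values was then computed.

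Probes needed 3 valid values in one strain and 2 or more in the other, which left 33249 of 33849. All 13 probes of the retinoic acid genes passed, 12 of them valid on all arrays. SHR was compared with WKY in limma 3.58.1 (lmFit, eBayes, R 4.3.3), with two-sided p-values adjusted by Benjamini-Hochberg across every probe tested, after the script was tested on simulated data. Lists use the brightest complete probe of a gene. Names follow the platform annotation, updated by Entrez identifier through the RefSeq gene table (GRCr8), and promoters are RefSeq's. Members and lists were chosen with earlier results of these data known. Named are all members, up to 3 genes a list by smallest p, the 3 profiles closest to the member probe of smallest p, and genes (cell type markers among them) picked after their values were seen. The number of arrays limits the precision. Alternatives changed normalization, filters, offset, prior, array weights, replicate block and arrays included.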

Additional observations from a re-analysis of the deposited data

How the results depend on the processing

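The count of the 13 probes past an adjusted p of 0.05 was 0 in every alternative run. Over all probes the count was 0 with each normalization alternative and without each array, 28 where the prior was robust and followed intensity, 18 after leaving out the dimmest 25%, 17 where 50 was added before log2, 5 where each probe had to be valid on 6 arrays and 5 under array weights. Aldh1a2 passed in 3 of these, with an adjusted p of 0.0053 (trend and robust prior), 0.0205 (without dim probes) and 0.0257 (offset). The count of the 13 probes with an unadjusted p under 0.05 was 2, and was 4 with intensities not normalized between arrays, 1 with array weights, 4 at a threshold of 0.10, and between 0 and 3 without single arrays. Intensities not normalized between arrays moved the median difference of all probes from -0.0099 to 0.12 and that of the 8 genes from 0.10 to 0.28. Without single arrays the median of the 8 genes lay between -0.021 and 0.21, with the change of sign without SHR 3. Both Cyp26b1 probes and Crabp2, Rarb probe A, both Rara probes and Aldh1a2 kept their direction in all alternatives. Small differences changed sign without single arrays, within ranges of -0.30 to 0.93 for Aldh1a1, -0.071 to 0.097 for Aldh1a3, -0.029 to 0.11 for Crabp1 and -0.18 to 1.31 for Rarb probe B. The ranges were -0.027 to 0.18, -0.0092 to 0.17 and -0.013 to 0.31 for Rxrg probes A, B and C, -0.047 to 0.34 for Rbp2, -0.018 to 0.51 for Cyp26a1 and -0.33 to 0.030 for Ugt2b1. Aldh1a3 was also at -0.0047 with cyclic loess and -0.0024 with array weights. The causes were not tested.

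Under a replicate block on the array number, 0 of all probes passed, 2798 had an unadjusted p under 0.05 (2545 without it), and 3 of the 13 probes did, those of Cyp26b1 and Crabp2, with unchanged differences. The deviations of arrays that share a number correlated at 0.0011, 0.22 and -0.13, so the numbers are not shown to pair the arrays.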
